A study of Mus musculus with 8 samples.

Results

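The levels of 10 genes of the G1 phase were described across the libraries: the D-type cyclin genes Ccnd1, Ccnd2 and Ccnd3, their kinase genes Cdk4 and Cdk6, the inhibitor genes Cdkn2c, Cdkn2d, Cdkn1a and Cdkn1b, and the retinoblastoma gene Rb1. They were chosen by gene name, with the TPM of all annotated transcripts of a gene summed, and all 10 of the 10 names were found among the 55487 genes listed. TPM is a length-scaled share of all transcripts in a library. The libraries came from bone marrow of C57BL/6J mice, with 2 libraries in each of 4 groups, which the design text calls biological duplicates. Both populations were sorted as lineage-negative, CD34-negative, ckit-negative and CD200R3-positive cells. The pre-Baso population stained high, and the basophil population intermediate, with the MAR1 antibody against the IgE receptor alpha chain. Control animals were littermates labelled wild type, and the other animals were labelled Nfil3-depleted, with titles that read floxed out. The sources used here give no Cre driver, age or sex and no number of animals per library.

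D-type cyclins bind CDK4 or CDK6, and these complexes phosphorylate the retinoblastoma protein, which otherwise holds E2F transcription factors at genes of S phase. INK4 proteins, among them p18 (Cdkn2c) and p19 (Cdkn2d), block CDK4 and CDK6 alone. CIP/KIP proteins, among them p21 (Cdkn1a) and p27 (Cdkn1b), inhibit CDK2 complexes and also bind cyclin D complexes. Granulocytes generally leave the cell cycle as they mature, and p27 is known to accumulate in many cells that stop dividing.

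Assigned sequence came to 272 to 398 megabases per library, and correlations between duplicates across genes were 0.962 to 0.979. Protein-coding genes took only 18.7% to 22.4% of the TPM, so a TPM of 1 is a larger share of messenger RNA than in most tables. Nfil3 had 6.61 and 7.65 TPM in control pre-Baso and 0 and 0.624 in Nfil3-depleted pre-Baso. In basophils it had 20.5 and 22.5 TPM in control and 0.853 and 1.32 in Nfil3-depleted libraries. The 16 basophil identity genes summed to 22397 to 36966 TPM in pre-Baso and 7404 to 12858 TPM in basophil libraries. Prss34 alone had 18974 to 25020 and 2667 to 9494 TPM. Against pre-Baso, 5 of the 16 were called higher and 4 lower in control basophils, beside 22.6% of all genes called. In Nfil3-depleted basophils 4 were called higher and 3 lower, beside 10.9% of all genes. One of these 16 genes, the basophil protease gene Mcpt8, was called lower in Nfil3-depleted cells: it had 6244 and 7888 TPM in control and 4.08 and 6.04 in Nfil3-depleted pre-Baso, and 969 and 1400 TPM in control and 2.73 and 1.98 in Nfil3-depleted basophils. With no Cre driver given, loss of Nfil3 and other genetic differences from the control animals cannot be told apart. Of 6 mast cell markers Mcpt4, Tpsab1 and Mrgprb2 were listed at 0 in all 8 libraries, Tpsb2 reached at most 0.295 and Kit 0.641 TPM. The mast cell chymase gene Cma1 had 0 and 0.715 TPM in control and 2.41 and 2.001 in Nfil3-depleted pre-Baso, and 0 in both control and 1.17 and 0.646 TPM in Nfil3-depleted basophils. It was not called between genotypes (limma adjusted p = 0.709 and 0.399). The first control basophil library stood apart by eosinophil granule genes: its sum over 9 eosinophil markers was 2665 TPM, against 15.8 to 194 TPM in the other 7. Neutrophil markers summed to 709 to 1140 TPM in pre-Baso and 1263 to 2344 TPM in basophil libraries, with S100a8 at 251 to 420 and 433 to 803 TPM. All 9 neutrophil markers were above 0 in every library. Of 7 progenitor markers Mpo, a granule gene of early myeloid cells, had 172 to 228 TPM in pre-Baso and 23.4 to 91.1 TPM in basophil libraries. It thus moved with the populations as Cdk4 and Cdk6 did. Ctsg did so too (745 to 1857 and 85.1 to 592 TPM) and stood higher in Nfil3-depleted libraries within each population. Elane (12.3 to 34.5 and 10.3 to 29.6 TPM) and Prtn3 (8.86 to 16.5 and 5.33 to 14.9 TPM) overlapped between populations. Cd34 reached at most 1.88 TPM and Flt3 0.0687. The other progenitor markers did not share the genotype direction of Ctsg: in pre-Baso the log2 difference was above 0 for 1 of the 5 tested and below 0 for 4. Mpo had 228 and 227 TPM in control and 204 and 172 in Nfil3-depleted pre-Baso. In basophils 3 were above 0 and 2 below. Between genotypes in basophils 1 of the 5 tested was called, higher in Nfil3-depleted cells, beside 0.056% of all genes. The part of these cells in the results was not tested. In bulk samples fewer cells of a type and less RNA per cell cannot be told apart.

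The 10 genes spanned a wide range of levels, and Ccnd3 was the most abundant of them in all 4 groups. In control pre-Baso the order by mean TPM was Ccnd3 (70.9), Cdkn2d (39.4), Cdk4 (32.2), Cdkn1b (15.9), Cdk6 (13.5), Cdkn2c (12.2), Ccnd2 (6.51), Cdkn1a (5.29), Rb1 (2.80) and Ccnd1 (0.458). Of neighbours in that order, the libraries of Cdkn2d and Cdk4, of Cdk6 and Cdkn2c, of Ccnd2 and Cdkn1a, and of Cdkn1a and Rb1 overlapped. In control basophils Cdkn1b came next after Ccnd3 (31.1 TPM) and was followed by Cdkn2d (24.9), Ccnd2 (17.7) and Cdk4 (16.8), while Cdkn2c stood last but for Ccnd1 (1.65). There the neighbours Ccnd2 and Cdk4, and Cdkn1a and Cdkn2c, overlapped. In Nfil3-depleted basophils the libraries of Cdkn2d (mean 28.4), Cdkn1b (23.1), Cdk4 (20.6) and Ccnd2 (16.5) each overlapped the next in the order.

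**Figure D1:**
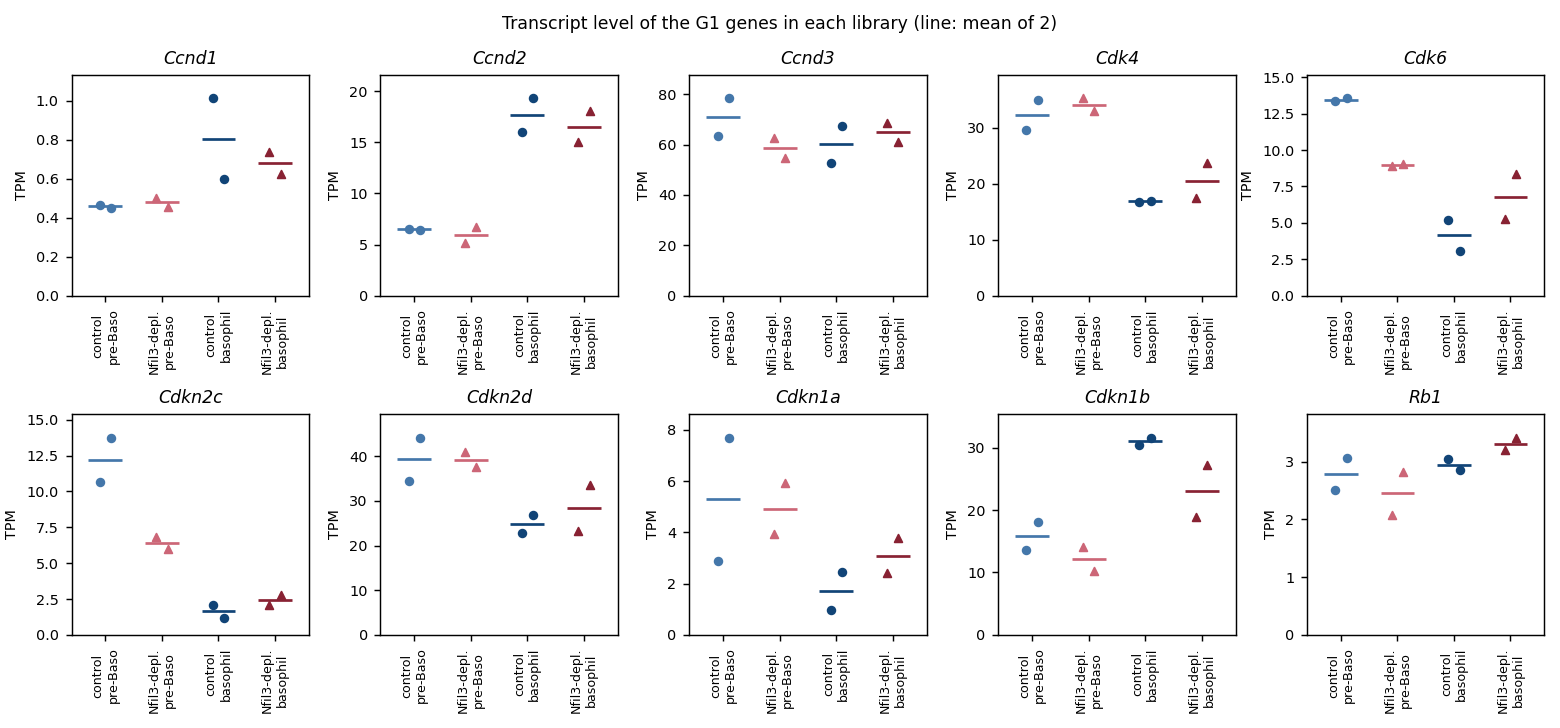
TPM of the 10 genes (vertical axes, linear and starting at 0, with a scale of their own) in each of the 8 libraries. Points are libraries (circles control, triangles Nfil3-depleted), lines are means of 2. Ccnd2 and Cdkn1b stand higher in every basophil library than in any pre-Baso library, and Cdkn2c, Cdkn2d, Cdk4 and Cdk6 lower.

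Expression was compared between basophils and pre-Baso within each genotype, which asks how the G1 genes differ between the earlier and the later population. A gene was tested where 2 or more libraries reached 1 TPM, as 9 of the 10 did. Of these 9, 5 were called in control animals at an adjusted p under 0.05, where 22.6% of all 12511 tested genes were called. Ccnd2 and Cdkn1b were called higher in control basophils, and Cdkn2c, Cdk4 and Cdk6 lower. In Nfil3-depleted animals 3 of 9 were called, Ccnd2 higher and Cdkn2c and Cdk4 lower, where 10.9% of all genes were called. Averaged over both genotypes 6 of 9 were called, with Cdkn1b, Cdk6 and Cdkn2d joining those 3, where 33.7% of all genes were called. Libraries did not overlap for 7 of 9 genes in control and 8 of 9 in Nfil3-depleted animals, beside 62.7% and 58.3% of all genes. Adjusted p-values are from limma on log2(TPM + 1), which shrinks the change of genes near 1 TPM, and log2 changes are given with their standard error (SE). The median change of all genes was 0.0839 in control and 0.101 in Nfil3-depleted animals.

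**Figure D2:**
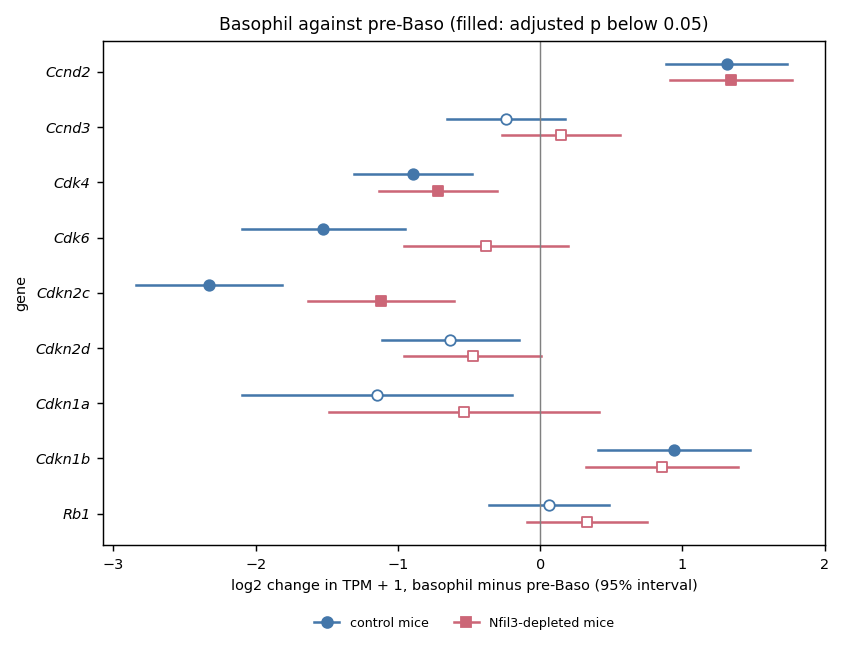
Log2 change in TPM + 1 from pre-Baso to basophils (horizontal axis) for the 9 tested genes in control (blue circles) and Nfil3-depleted mice (red squares), with 95% intervals of the limma fit; filled symbols have an adjusted p under 0.05. Ccnd2 lies at 1.31 and 1.34 in the 2 genotypes, whereas Cdk6 lies at -1.52 and -0.38 and Cdkn2c at -2.33 and -1.12.

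Among the D cyclins, Ccnd2 rose in basophils of both genotypes while Ccnd3 was called in neither. Cyclin D2, encoded by Ccnd2 on the minus strand of chromosome 6 (127125162 to 127152193, mm10), is induced by cytokines and growth factors in many blood cells. Ccnd2 had 6.55 and 6.46 TPM in control pre-Baso, 5.14 and 6.72 in Nfil3-depleted pre-Baso, 16.1 and 19.3 in control basophils, and 15.04 and 18.03 in Nfil3-depleted basophils. Every basophil library stood above every pre-Baso library, with little difference between genotypes. The log2 change was 1.31 ± 0.19 (SE, adjusted p = 0.00247) in control and 1.34 ± 0.19 (adjusted p = 0.00693) in Nfil3-depleted animals. The call in Nfil3-depleted animals ended without their first pre-Baso library (adjusted p = 0.066).

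Ccnd3 encodes cyclin D3, the D cyclin on which lymphocyte and erythroid progenitors are known to depend. Ccnd3 had 63.5 and 78.4 TPM in control pre-Baso, 62.4 and 54.8 in Nfil3-depleted pre-Baso, 52.5 and 67.6 in control basophils, and 68.7 and 61.2 in Nfil3-depleted basophils. The groups overlapped between populations in both genotypes, and the changes were -0.24 ± 0.18 (adjusted p = 0.378) and 0.15 ± 0.18 (adjusted p = 0.647). Reads of Ccnd3 were divided over 21 annotated transcripts (chromosome 17, 47505051 to 47599691, plus strand), 11 of them above 0. Its main transcript ENSMUST00000182209, which starts at the downstream start, had 44.5 to 71.1 TPM in 7 libraries and was listed at 0 in the first control basophil library. There ENSMUST00000183177, which starts upstream, took 37.6 TPM instead. An unspliced transcript at the upstream start, ENSMUST00000183061, had 0.546 to 0.865 TPM in the 4 pre-Baso and 2.19 to 3.41 TPM in the 4 basophil libraries, a difference noticed in the data and not tested.

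Counting only the coverage of coding bases, scaled to the same total over protein-coding genes in every library, does not depend on which transcript takes the reads. On that scale, added after the data were seen, Ccnd3 had means of 266 ± 3.09 in control pre-Baso and 179 ± 12.3 in control basophils (SD, n = 2). In Nfil3-depleted animals the means were 218 ± 17.1 and 219 ± 5.04. There Ccnd3 was called lower in control basophils (log2 change -0.57, adjusted p = 0.00952), so the absence of a call for Ccnd3 in control animals depends on the measure.

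Ccnd1, the D cyclin best known from epithelial cells and fibroblasts, was close to absent. Ccnd1 had 0.466 and 0.450 TPM in control pre-Baso, 0.500 and 0.456 in Nfil3-depleted pre-Baso, 1.01 and 0.599 in control basophils, and 0.739 and 0.623 in Nfil3-depleted basophils. Only 1 library reached 1 TPM, so Ccnd1 did not pass the filter. Its last exon overlaps the span of LTO1 (3.11 to 6.22 TPM) on the other strand. Strand was not used in the quantification, so reads that fall in exons of both genes cannot be told apart. As shares of summed D cyclin TPM, Ccnd2 took 7.55% to 10.8% in pre-Baso and 17.8% to 23.1% in basophils. Ccnd3 took 88.4% to 91.9% and 75.5% to 81.3%, so it remained the larger share in every library.

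Both kinase genes stood lower in basophils of control animals. Cdk4 lies on chromosome 10 (127063534 to 127067920, plus strand) and Cdk6 on chromosome 5 (3341485 to 3531008, plus strand). Their promoter windows from RefSeq (GRCm38.p6, 250 bases before to 50 after the start) are shown because both genes were called lower in control basophils. Capitals mark matches to CACGTG, the E-box bound by MYC and its partners, and to TTTNNCGC, both searched on both strands. TTTNNCGC is a loose form of the E2F motif, since it allows any base at each N, where the consensus has C or G.
Cdk4 chr10:127063285-127063584 (plus strand): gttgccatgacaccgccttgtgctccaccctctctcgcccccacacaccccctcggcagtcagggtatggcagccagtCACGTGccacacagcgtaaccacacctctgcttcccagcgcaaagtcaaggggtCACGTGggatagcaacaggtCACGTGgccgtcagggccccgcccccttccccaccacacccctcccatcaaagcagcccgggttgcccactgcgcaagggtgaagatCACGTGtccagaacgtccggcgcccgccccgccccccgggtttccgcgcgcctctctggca
Cdk6 chr5:3343643-3343942 (plus strand): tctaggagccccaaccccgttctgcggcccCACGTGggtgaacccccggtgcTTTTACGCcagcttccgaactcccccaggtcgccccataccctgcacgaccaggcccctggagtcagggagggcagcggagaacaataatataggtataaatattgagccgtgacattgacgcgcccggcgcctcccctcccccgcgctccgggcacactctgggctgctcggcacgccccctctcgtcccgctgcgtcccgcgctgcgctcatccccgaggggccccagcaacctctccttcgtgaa
The Cdk4 window held 4 matches to CACGTG, beginning at positions -172, -118, -98 and -11 counted from the start as 0. The Cdk6 window held 1 match to CACGTG at -220 and 1 to TTTNNCGC at -198. The latter has T and A at the open positions, so it is not the E2F consensus. Of 32851 windows of the same length 7.15% held CACGTG and 5.17% held TTTNNCGC, and no match overlapped another. Neither window held TTCNNNGAA, the STAT5 motif (8.3% of windows), or TTANGTAA, an NFIL3 motif (2.32% of windows). A match describes letters and not binding.

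Cdk4 had 29.6 and 34.9 TPM in control pre-Baso, 35.3 and 33.0 in Nfil3-depleted pre-Baso, 16.8 and 16.9 in control basophils, and 17.5 and 23.6 in Nfil3-depleted basophils. All 4 basophil libraries stood below all 4 pre-Baso libraries. The log2 change was -0.89 ± 0.18 (adjusted p = 0.0103) in control and -0.72 ± 0.18 (adjusted p = 0.0402) in Nfil3-depleted animals. The call in control animals ended without their second pre-Baso library (adjusted p = 0.0556). The call in Nfil3-depleted animals ended in 7 of the 8 fits that left out 1 library (adjusted p = 0.0504 to 0.212), and averaged over both genotypes it was -0.81 ± 0.13 (adjusted p = 0.00227). Cdk4 overlaps Tspan31 (3.12 to 7.51 TPM) on the other strand.

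Cdk6 encodes the partner of D cyclins that is prominent in blood progenitors. Cdk6 had 13.3 and 13.6 TPM in control pre-Baso, 8.90 and 9.02 in Nfil3-depleted pre-Baso, 5.19 and 3.08 in control basophils, and 5.26 and 8.33 in Nfil3-depleted basophils. Levels fell between populations in control animals (log2 change -1.52 ± 0.25, adjusted p = 0.00442), and the libraries did not overlap. In Nfil3-depleted animals the libraries also did not overlap, but the change was -0.38 ± 0.25 (95% interval -0.96 to 0.19, adjusted p = 0.358). Among Cdk6 transcripts the highest TPM was that of one of 2470 bases in 3 libraries (7.90 and 8.63 TPM in control pre-Baso, 6.00 in the second Nfil3-depleted pre-Baso). It was that of one of 11525 bases in the first Nfil3-depleted pre-Baso library (7.99 TPM) and in the 4 basophil libraries (2.77 to 6.88 TPM), and each of these 2 transcripts was listed at 0 where the other led. The coverage of coding bases avoids that division and gave 49.4 ± 2.31, 35.4 ± 2.86, 15.3 ± 3.94 and 25.2 ± 8.03 in control pre-Baso, Nfil3-depleted pre-Baso, control basophils and Nfil3-depleted basophils (SD, n = 2), the same order of groups as the TPM. Cdk6 made up 20.1% to 31.1% of the summed TPM of both kinases in pre-Baso and 15.4% to 26.1% in basophils.

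Of the INK4 genes, Cdkn2c was called lower in basophils of both genotypes and Cdkn2d in neither. On log2(TPM + 1) Cdkn2c had the largest change among the 9 genes in control animals. Cdkn2c had 10.7 and 13.8 TPM in control pre-Baso, 6.79 and 5.96 in Nfil3-depleted pre-Baso, 2.09 and 1.21 in control basophils, and 2.06 and 2.75 in Nfil3-depleted basophils. The libraries of the populations were far apart in control animals and nearer in Nfil3-depleted animals. The log2 change was -2.33 ± 0.22 (adjusted p = 0.000561) in control and -1.12 ± 0.22 (adjusted p = 0.0204) in Nfil3-depleted animals. The call in Nfil3-depleted animals ended without 3 of their 4 libraries in turn (adjusted p = 0.0611 to 0.13) and on the coverage of coding bases (log2 change -0.78, adjusted p = 0.0698). The call in control animals held under all 18 alternatives, with log2 changes from -2.85 to -1.37. On the coverage of coding bases the means of Cdkn2c were 61.1 ± 6.65 in control pre-Baso and 20.3 ± 7.11 in control basophils (SD, n = 2). In Nfil3-depleted animals they were 43.7 ± 2.32 and 25.2 ± 3.86, so the fall was smaller on that scale in both genotypes. Cdk6 fell there from 49.4 to 15.3 in control animals, so the rank of Cdkn2c depends on the measure.

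Cdkn2c has 2 annotated transcripts on the minus strand of chromosome 4, which share the whole coding sequence and differ in their start. The long transcript, ENSMUST00000097921, begins with an untranslated exon of 1580 bases (109665610 to 109667189). The short one, ENSMUST00000063531, begins at a downstream start, whose RefSeq window (GRCm38.p6) is shown because the short transcript was the one listed at 0 in basophils; capitals mark the CACGTG match at position 34.
Cdkn2c chr4:109665323-109665622 (minus strand): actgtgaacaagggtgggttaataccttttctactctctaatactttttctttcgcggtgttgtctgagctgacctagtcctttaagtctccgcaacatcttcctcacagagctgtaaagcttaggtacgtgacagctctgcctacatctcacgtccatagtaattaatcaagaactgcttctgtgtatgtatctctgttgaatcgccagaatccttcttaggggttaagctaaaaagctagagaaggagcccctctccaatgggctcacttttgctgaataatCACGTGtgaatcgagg
This window had 44% G and C and 8 CpG, beside 73.3% and 33 in the window at the upstream RefSeq start and medians of 52.7% and 7 over all windows. The short transcript had 4.71 and 8.28 TPM in control pre-Baso and 1.86 and 0.367 in Nfil3-depleted pre-Baso, and was listed at 0 in all 4 basophil libraries. The long transcript had 5.97 and 5.48 TPM in control pre-Baso, 4.93 and 5.59 in Nfil3-depleted pre-Baso, 2.09 and 1.21 in control basophils, and 2.06 and 2.75 in Nfil3-depleted basophils. In TPM as divided, most of the genotype difference of Cdkn2c in pre-Baso thus fell to the short transcript. Coverage did not follow that division. The upstream exon, absent from the short transcript, had 3.84 and 3.37 reads per base in control and 2.02 and 2.21 in Nfil3-depleted pre-Baso. Its percentage of the last exon coverage overlapped between genotypes (49.6% and 32.5% against 36.2% and 39.9%). The genotype difference was smaller on the coverage of coding bases (means of 61.1 ± 6.65 and 43.7 ± 2.32, SD, n = 2).

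Coverage along the gene did not follow that division in basophils either. The upstream exon, which belongs to the long transcript alone, had coverage of 3.84 and 3.37 reads per base in control pre-Baso, 2.02 and 2.21 in Nfil3-depleted pre-Baso, 0.158 and 0.129 in control basophils, and 0.420 and 0.737 in Nfil3-depleted basophils. As a percentage of the coverage of the last exon, which both transcripts share, it was 49.6% and 32.5%, 36.2% and 39.9%, 6.88% and 9.07%, and 19.0% and 24.0% in the same order. Basophil libraries thus held shared exons with little of the upstream exon, in control libraries from 250 and 204 assigned bases. Over 778 transcripts covered in all libraries, the median log2 ratio of first to last exon was -1.59 to -1.42, with no separation of the populations. These exon values were looked at after the data were seen and were not tested.

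**Figure D3:**
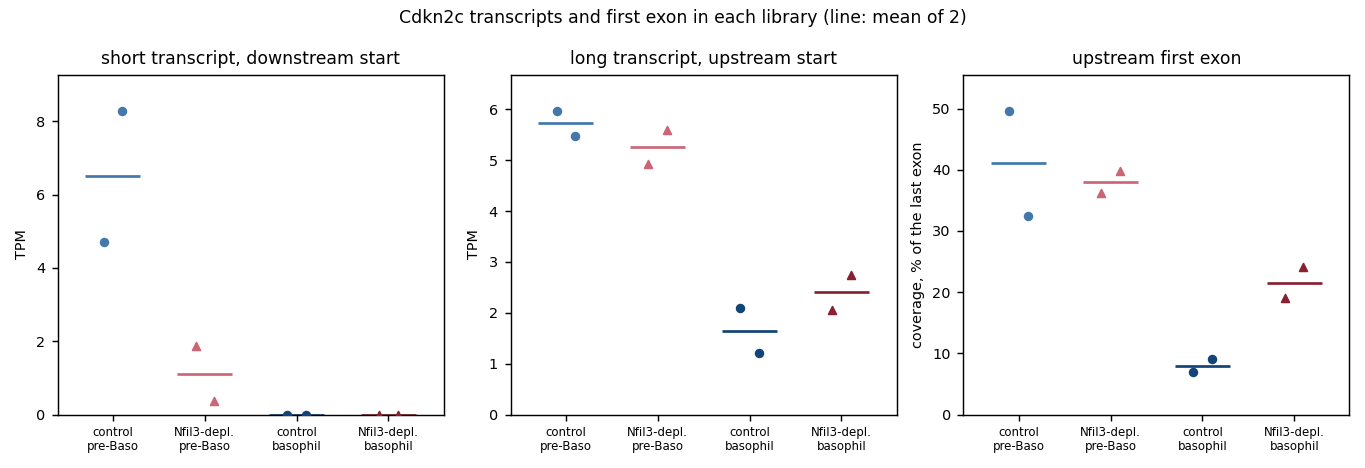
TPM of the short (left) and the long (middle) Cdkn2c transcript and coverage of the upstream exon as a percentage of the last exon (right) in each library; points are libraries, lines means of 2. The short transcript is at 0 in the 4 basophil libraries, and the upstream exon is at 6.88% to 24.0% there against 32.5% to 49.6% in pre-Baso.

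Cdkn2d was the most abundant inhibitor gene in pre-Baso. Cdkn2d (chromosome 9, 21288410 to 21291407, minus strand) had 34.6 and 44.2 TPM in control pre-Baso, 40.9 and 37.6 in Nfil3-depleted pre-Baso, 22.9 and 26.9 in control basophils, and 23.2 and 33.5 in Nfil3-depleted basophils. Every basophil library stood below every pre-Baso library. The change was called only as the mean of both genotypes (-0.55 ± 0.15, adjusted p = 0.0221), with -0.63 ± 0.21 (adjusted p = 0.0638) in control and -0.48 ± 0.21 (adjusted p = 0.183) in Nfil3-depleted animals. In control animals it was called under 7 of 18 alternatives (adjusted p down to 0.0285), and the averaged call was lost under 5 of 17: without a filter on low values and without the second control pre-Baso (adjusted p = 0.0686), the first Nfil3-depleted pre-Baso (0.0716), the first control basophil (0.065) or the first Nfil3-depleted basophil library (0.0701). The other INK4 genes, Cdkn2a and Cdkn2b, and the CIP/KIP gene Cdkn1c reached at most 0.629, 0.356 and 0.211 TPM.

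Of the CIP/KIP genes, Cdkn1b stood higher in basophils, opposite to the INK4 genes. Cdkn1b lies on chromosome 6 (134920401 to 134925513, plus strand). Its RefSeq window (GRCm38.p6) is shown beside those of the genes that fell; it held none of the 4 motifs searched, so no capitals appear.
Cdkn1b chr6:134920151-134920450 (plus strand): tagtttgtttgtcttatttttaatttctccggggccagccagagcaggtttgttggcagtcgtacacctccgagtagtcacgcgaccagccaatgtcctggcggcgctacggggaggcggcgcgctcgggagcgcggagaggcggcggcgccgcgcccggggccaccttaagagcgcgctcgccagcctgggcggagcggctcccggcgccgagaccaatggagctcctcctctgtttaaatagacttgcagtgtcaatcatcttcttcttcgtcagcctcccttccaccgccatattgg
Cdkn1b had 13.6 and 18.2 TPM in control pre-Baso, 14.1 and 10.3 in Nfil3-depleted pre-Baso, 30.5 and 31.6 in control basophils, and 18.9 and 27.2 in Nfil3-depleted basophils. All basophil libraries stood above all pre-Baso libraries. The log2 change was 0.94 ± 0.23 (adjusted p = 0.0229) in control and 0.86 ± 0.23 (adjusted p = 0.0515) in Nfil3-depleted animals. The call in control animals ended without the first control pre-Baso (adjusted p = 0.133), the first control basophil (adjusted p = 0.073) or the second control basophil library (adjusted p = 0.0788). On the coverage of coding bases the Nfil3-depleted change was 1.15 and was called (adjusted p = 0.00309).

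Cdkn1a, a target of p53, was low and varied between duplicates. Cdkn1a had 2.89 and 7.70 TPM in control pre-Baso, 3.94 and 5.92 in Nfil3-depleted pre-Baso, 0.983 and 2.47 in control basophils, and 2.41 and 3.78 in Nfil3-depleted basophils. Basophil libraries stood below pre-Baso libraries within each genotype, by little in both. The changes were -1.15 ± 0.41 (adjusted p = 0.0811) and -0.54 ± 0.41 (adjusted p = 0.439). With the first control pre-Baso library left out, Cdkn1a was called in control animals (-1.73, adjusted p = 0.0425). Within the summed TPM of the 4 inhibitors, Cdkn1b took 17.2% to 22.1% in pre-Baso and 40.5% to 54.0% in basophils, while Cdkn2c took 9.96% to 17.3% and 1.95% to 4.42%. The sum itself was 59.8 to 83.8 TPM in pre-Baso and 46.6 to 67.3 TPM in basophils, ranges that overlap.

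Rb1, the substrate of the cyclin D kinases, stayed within a narrow range. Rb1 had 2.52 and 3.07 TPM in control pre-Baso, 2.08 and 2.83 in Nfil3-depleted pre-Baso, 3.04 and 2.86 in control basophils, and 3.21 and 3.42 in Nfil3-depleted basophils. The changes were 0.06 ± 0.18 (95% interval -0.36 to 0.48) in control and 0.33 ± 0.18 (-0.09 to 0.75) in Nfil3-depleted animals, and neither was called (adjusted p = 0.843 and 0.283). The span of Rb1, introns included, overlaps Rcbtb2 (7.47 to 19.2 TPM) and Lpar6 (1.32 to 3.92 TPM) on the other strand. Reads could not be told apart only where exons of both genes overlap, which was not looked at.

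Genotypes were then compared within each population, which asks whether the G1 genes stand at other levels in Nfil3-depleted animals. In pre-Baso 0 of 9 genes were called, where 0.0639% of all genes were called, and 1 had an unadjusted p under 0.05, where 4.38% of all genes did. That gene was Cdkn2c, with means of 12.2 ± 2.18 TPM in control and 6.38 ± 0.588 in Nfil3-depleted pre-Baso (SD, n = 2). Its log2 difference was -0.83 ± 0.22 (limma adjusted p = 0.865). The libraries of 3 of 9 genes did not overlap, beside 30.5% of all genes, all lower in Nfil3-depleted cells: Cdkn2c, Cdk6 (-0.54 ± 0.25, adjusted p = 1) and Ccnd3 (-0.27 ± 0.18, adjusted p = 1).

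In basophils 0 of 9 genes were called, where 0.056% of all genes were called, and 1 had an unadjusted p under 0.05, where 8.51% of all genes did. That gene was Cdk6, higher in Nfil3-depleted basophils by 0.60 ± 0.25 on the log2 scale (limma adjusted p = 0.561). Both Nfil3-depleted libraries stood above both controls, the lower of them by little (5.26 against 5.19 TPM). Without the first control basophil library the difference was 0.90 (adjusted p = 0.388). Libraries did not overlap for 4 of 9 genes, beside 38.6% of all genes: Cdk6, Cdk4 (0.26 ± 0.18, adjusted p = 0.753) and Rb1 (0.13 ± 0.18, adjusted p = 0.915) were higher, and Cdkn1b (-0.44 ± 0.23, adjusted p = 0.673) was lower.

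Averaged over both populations 0 of 9 genes were called between genotypes, where 0.0879% of all genes were called. Cdkn1b had the smallest p (-0.40 ± 0.16, limma adjusted p = 0.663). Its transcript of 2393 bases was listed at 0 in the second Nfil3-depleted pre-Baso and the first Nfil3-depleted basophil library. On the coverage of coding bases its genotypes lay nearer. Control and Nfil3-depleted means were 65.0 ± 8.60 and 59.0 ± 6.73 in pre-Baso, and 154 ± 1.39 and 132 ± 2.62 in basophils (SD, n = 2). A test of the difference of the genotype effect between basophils and pre-Baso called 0 of 9 genes and 0% of all genes, with 2 of 9 genes and 5.51% of all genes at an unadjusted p under 0.05. Those 2 were Cdkn2c (1.21 ± 0.32, limma adjusted p = 0.839) and Cdk6 (1.14 ± 0.35, limma adjusted p = 0.881). With 2 libraries per group the intervals were wide, and the absence of a call does not show equal levels: for Cdkn1a in pre-Baso the 95% interval ran from -0.94 to 0.96.

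**Figure D4:**
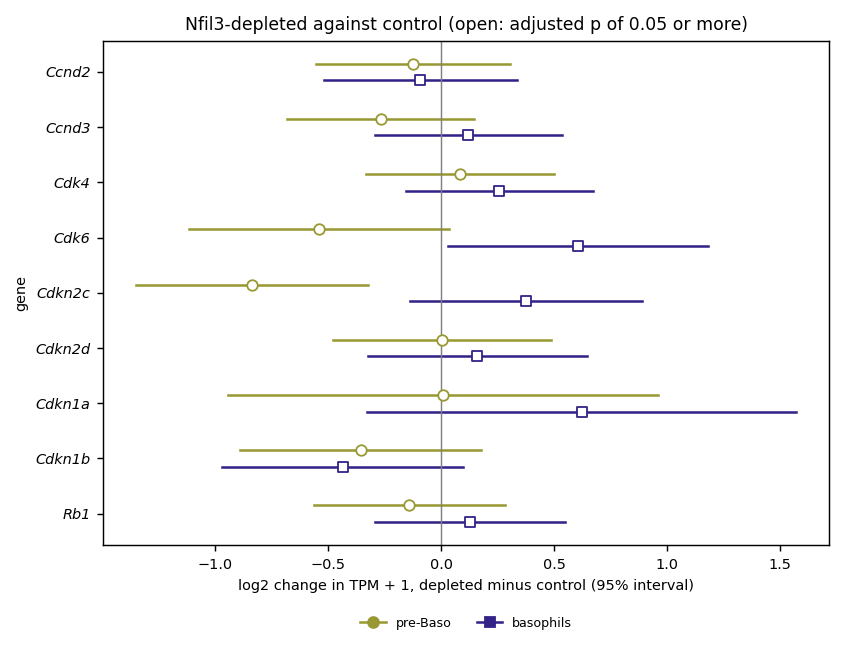
Log2 difference in TPM + 1 between Nfil3-depleted and control libraries (horizontal axis) for the 9 tested genes in pre-Baso (circles) and basophils (squares), with 95% intervals of the limma fit. No gene had an adjusted p under 0.05, and Cdkn2c (-0.83 and 0.37) and Cdk6 (-0.54 and 0.60) lie on opposite sides of 0 in the 2 populations.

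Genes that act around the cyclin D kinases were read as lists, whose counts stand beside 22.6% of all genes called in control and 10.9% in Nfil3-depleted animals, in either direction. Of 16 tested genes of pocket proteins, E2F factors and the MuvB complex, which hold or drive cell cycle promoters, 1 was called higher and 8 lower in control basophils against pre-Baso (median log2 change -0.54, beside 0.0839 for all genes). The p107 gene Rbl1 fell from a mean of 3.80 to 1.24 TPM (-1.10 ± 0.21, adjusted p = 0.00858), and E2f1 from 3.44 to 0.890 (-1.23 ± 0.27, adjusted p = 0.0143). The p130 gene Rbl2, the pocket protein best known from resting cells, rose from 7.30 to 14.5 TPM (0.91 ± 0.24, adjusted p = 0.0277). In Nfil3-depleted animals 0 of 16 were called (median -0.41), and Rbl2 had means of 7.58 and 12.6 TPM (0.68 ± 0.24, adjusted p = 0.106).

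Genes of the next kinase step, CDK2 with cyclins E and A, fell in part. Of 10 tested, 6 were called lower in control and 4 in Nfil3-depleted animals, with medians of -0.94 and -0.68. Cks1b, a subunit that helps mark p27 for breakdown, fell from 136 to 18.6 TPM in control (-2.78 ± 0.24, adjusted p = 0.000415) and from 135 to 41.4 TPM in Nfil3-depleted animals (-1.70 ± 0.24, adjusted p = 0.00693). The cyclin E genes Ccne1 and Ccne2 and the cyclin A2 gene Ccna2 were called lower in both. Cdk2 itself was called in neither genotype alone (-0.81 ± 0.27, adjusted p = 0.0647 in control, and -0.90 ± 0.27, adjusted p = 0.0711 in Nfil3-depleted animals) and was called lower averaged over both (-0.86 ± 0.19, adjusted p = 0.0108).

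Of 33 tested E2F targets of S phase, 30 were called lower in control and 16 in Nfil3-depleted animals, with medians of -1.57 and -0.88. Of 28 mitosis and G2 genes 28 and 23 were called lower, with medians of -2.44 and -1.39. Rrm2, a ribonucleotide reductase subunit, fell from 59.7 to 7.34 TPM in control animals (-2.85 ± 0.25, adjusted p = 0.000431). Between genotypes in basophils 0 of these 33 S phase genes and 1 of the 28 mitosis genes, Birc5, were called, and the medians were 0.55 and 0.75 beside -0.0127 for all genes.

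Upstream regulators were listed as transcription factors and antiproliferative genes that act on D cyclins or inhibitors. Of 17 tested, 7 were called higher in control and 8 in Nfil3-depleted animals and 0 lower, with medians of 0.55 and 0.59. The antiproliferative genes Btg1 (10.01 to 33.9 TPM, 1.66 ± 0.16, adjusted p = 0.000547) and Btg2 (5.24 to 18.8 TPM, 1.67 ± 0.18, adjusted p = 0.000841) and the MYC antagonist Mxd1 (14.7 to 39.6 TPM, 1.39 ± 0.18, adjusted p = 0.00172) rose in control animals. Foxo1, an activator of Cdkn1b, rose from 2.22 to 5.83 TPM (1.09 ± 0.22, adjusted p = 0.00999), and Myc, an activator of Ccnd2 and Cdk4 in other cells, from 4.92 to 9.55 TPM (0.84 ± 0.22, adjusted p = 0.0277).

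Targets of p53 other than Cdkn1a stood higher in basophils where they were called, while the change of Cdkn1a itself was below 0 and was not called. Of 15 tested, 7 were called higher in control and 4 in Nfil3-depleted animals and 0 lower, with medians of 0.66 and 0.50. The death receptor gene Fas rose from 0.892 to 4.81 TPM in control animals (1.61 ± 0.23, adjusted p = 0.00241), and Gadd45a from 4.90 to 11.2 TPM (1.05 ± 0.21, adjusted p = 0.00952). Of 11 tested genes for the turnover of D cyclins, p27 and p21, 1 was called higher and 1 lower in control animals (median 0.0878), a share below that of all genes. Fbxo31, the receptor of a ubiquitin ligase for cyclin D1, rose from 4.03 to 8.33 TPM (0.89 ± 0.18, adjusted p = 0.0111), and Dtl, the receptor that marks p21 in S phase, fell from 2.29 to 0.677 TPM (-0.97 ± 0.25, adjusted p = 0.0257). Of markers of other cell types, 6 of 9 neutrophil, 2 of 8 eosinophil, 2 of 8 monocyte, 4 of 6 erythroid and megakaryocyte and 1 of 4 B cell genes tested were called higher in control basophils, the eosinophil, monocyte and B cell shares being near the 22.6% of all genes. In Nfil3-depleted basophils 3 of 9 neutrophil and 2 of 8 eosinophil genes were called higher, and 0 of the monocyte, erythroid and megakaryocyte, and B cell genes. Monocyte markers summed to 42.7 to 79.0 TPM in pre-Baso and 64.5 to 184 TPM in basophil libraries. Most stood higher in the first than in the second basophil library of both genotypes. C1qb had 51.7 against 1.23 TPM in control and 33.0 against 2.81 in Nfil3-depleted basophils. F13a1 in control and Ms4a6c in Nfil3-depleted basophils went the other way. Of the neutrophil markers S100a8 was also higher in the first (803 against 433 and 740 against 444 TPM), and Cxcr2 was lower. The part of these markers in the results was not tested.

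**Figure D5:**
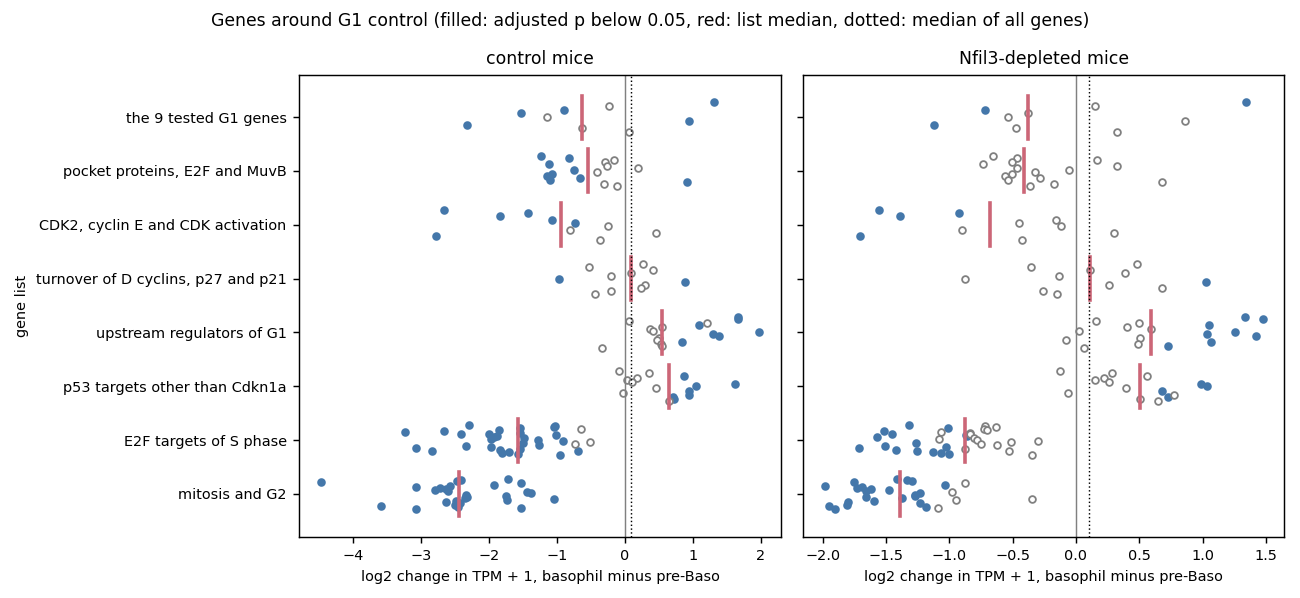
Log2 change in TPM + 1 from pre-Baso to basophils (horizontal axes) of the 9 tested G1 genes and of 7 lists around G1 control, in control (left) and Nfil3-depleted mice (right). Each point is a gene, filled where the adjusted p is under 0.05; red bars are list medians and the dotted line the median of all genes. Mitosis genes have medians of -2.44 and -1.39, and upstream regulators of 0.55 and 0.59.

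For the 4 tested members with the highest mean TPM, the genes with the most similar pattern over the 8 libraries were sought among 4428 genes, by the root mean square difference of centred log2(TPM + 1). Among the nearest to Ccnd3 were Ranbp3 (0.0783) and Mllt10 (0.0947), and nearest to Cdkn2d were Sumo2 (0.0654), Dnajc2 (0.0791) and Acat1 (0.0821). Nearest to Cdk4 were Atp5o (0.0611), Nudt21 (0.076) and Etfb (0.0841), and nearest to Cdkn1b were Cdk9 (0.12), Slc66a2 (0.134) and Fam189b (0.143). The members' own patterns had a root mean square of 0.17 for Ccnd3, 0.328 for Cdkn2d, 0.432 for Cdk4 and 0.527 for Cdkn1b.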

How the data were processed

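RNA was measured in 8 libraries of sorted mouse bone marrow cells. A SMARTER kit for mRNA was used on total RNA, per the labels' protocols. The submitters' processing notes name HISAT2 and mm10 for the alignment. Transcripts were quantified with StringTie 2.1.4 on Ensembl release 101 annotation without a strand option, per the file headers. The deposited tables give TPM, FPKM and coverage per transcript and hold no read counts, so the number of reads behind a value is unknown. Reads that fit several transcripts were divided by StringTie, which moves values between transcripts of different length.

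TPM was summed per gene. The 12511 genes that reached 1 TPM in 2 or more libraries were fitted on log2(TPM + 1) with limma 3.58.1 (R 4.3.3), with 1 mean per group, 4 residual degrees of freedom and trended moderation. The 7 contrasts were the change between populations in each genotype and averaged, the genotype difference in each population and averaged, and the difference of the genotype effect. Within a contrast, Benjamini-Hochberg adjustment ran over all tested genes, with calls made under 0.05. The genes, lists and tests were chosen with earlier results of these data known. The text names all 10 genes, called members of other lists (at most 6 per direction) and up to 3 with the smallest p. One gene near Ccnd3 in pattern is not reported here. The fit was tested on simulated data. RefSeq windows were found for 7 of the 10 genes (10 windows). The labels do not say whether replicate numbers pair the libraries, and the main fit had no pairing. Deviations of the first library from its group mean were correlated between groups at -0.0544 to 0.202. The highest value was between control and Nfil3-depleted basophils. Whether libraries of the same number shared a preparation was not tested. Alternatives were a pseudocount of 0.1 or 5, no filter, protein-coding genes only, quantile normalization, FPKM, robust moderation, the compared groups alone, a replicate block, leaving out each library, and, added after the data were seen, coverage of coding bases.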

Additional observations from a re-analysis of the deposited data

Results flagged for a closer look

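Cdk6 differed between genotypes in opposite directions in the 2 populations: both Nfil3-depleted pre-Baso libraries stood below both controls, and both Nfil3-depleted basophil libraries stood above both controls. The difference of the effects was 1.14 on the log2 scale, and limma did not call it (adjusted p = 0.881; 0.43 to 0.999 over the alternatives).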

How the results depend on the processing

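Fitted again under 18 other settings (17 for the averaged contrasts and the difference of effects), 0 of 9 G1 genes were called between genotypes, in either population, averaged, or as a difference of effects, under any of them. Between populations 4 to 7 were called in control animals, 0 to 4 in Nfil3-depleted animals and 5 to 7 averaged. Ccnd2, Cdkn2c and Cdk6 in control animals were called under all 18. The count in Nfil3-depleted animals was 1 without a filter on low values and 0 to 3 when a library was left out: 0 without their first pre-Baso library, and 1 without the second or without their first basophil library. Without the filter the calls of Cdkn1b in control (adjusted p = 0.0905), Cdkn2c (0.0876) and Cdk4 (0.111) in Nfil3-depleted animals and Cdkn2d averaged (0.0765) ended, where 32088 genes were tested. With only the compared groups fitted the Cdk4 call in Nfil3-depleted animals ended (adjusted p = 0.0828). Over all genes 1363 were called between populations in Nfil3-depleted animals, 298 without the filter, 562 with only the compared groups fitted, and 19 to 658 without 1 of their libraries, lowest without the first pre-Baso library. In control animals 2832 were called, 1516 without the filter and 1397 to 1870 without 1 of their libraries. The replicate block called Cdkn1a in control animals (-1.15, limma adjusted p = 0.0108) and averaged (-0.84, limma adjusted p = 0.00597). This gave 6 of 9 and 7 of 9 calls, and left 3 of 9 in Nfil3-depleted animals. The labels do not say whether the shared numbers pair libraries. Cdkn1a averaged was also called with quantile normalization (adjusted p = 0.0344), on FPKM (0.0478) and without the first control pre-Baso (0.023) or the second control basophil library (0.0296).

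Differences near 0 changed sign, and the cause was not tested. Between genotypes in pre-Baso Cdkn1a was -0.018 with a pseudocount of 5 and Cdkn2d -0.032 with quantile normalization. Averaged, Cdk6 was -0.019 with a pseudocount of 5, and Rb1 was 0.041 rescaled to protein-coding genes, 0.022 with quantile normalization and 0.047 on FPKM. Rb1 between populations in control animals was -0.10 on coverage of coding bases, and the difference of effects of Ccnd2 was -0.013 with quantile normalization. Leaving out 1 library at a time gave these ranges. Between genotypes in pre-Baso they were -0.57 to 0.59 for Cdkn1a, -0.17 to 0.18 for Cdkn2d, -0.29 to 0.040 for Ccnd2, -0.031 to 0.20 for Cdk4 and -0.30 to 0.017 for Rb1. In basophils they were -0.094 to 0.42 for Cdkn2d, -0.22 to 0.035 for Ccnd2 and -0.059 to 0.30 for Ccnd3. Averaged they were -0.045 to 0.21 for Cdkn2d, -0.16 to 0.017 for Ccnd3, -0.12 to 0.18 for Cdk6 and -0.084 to 0.072 for Rb1. Between populations they were -0.044 to 0.17 for Rb1 in control animals and -0.14 to 0.043 for Ccnd3 averaged. For the difference of effects they were -0.33 to 0.17 for Cdkn1b, -0.10 to 0.41 for Cdkn2d, -0.13 to 0.20 for Ccnd2 and -0.033 to 0.38 for Cdk4. In all, 41 of the values recomputed changed sign, 25 lost a call, 21 gained one, and 1020 kept their direction and their side of the threshold. The gains were Cdkn2d in control (7 settings) and Cdkn1b in Nfil3-depleted animals (5), Cdkn1a in control (2) and averaged (5), and Ccnd3 in control and averaged on coverage of coding bases. With no read counts in the tables, values near or below 1 TPM, as for Ccnd1 and Cdkn2c in basophils, have an unknown counting error.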
